A study of Mus musculus with 22 samples.

Results

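Genes of glycolysis and of the fate of pyruvate were followed in bulk RNA-seq of 22 libraries from primed mouse epiblast stem cells (mEpiSCs) that were reverted to the naive state with activators of AMP-activated protein kinase (AMPK). The genes were chosen by name, as the rows of the gene count table that carry the symbol of a listed glucose transporter, glycolytic enzyme, lactate or pyruvate carrier, pyruvate dehydrogenase subunit or regulator, and 36 genes were found among the 34489 genes of the table. Aldoa had a second row with 63 counts over all libraries, and the row with the larger total was used. The study tested whether AMPK activation alone can turn primed cells into naive cells, and there were no replicate libraries, so that each combination of line, treatment and time was sequenced once. Rex1-GFP mESCs, with GFP reporting the naive gene Rex1, gave the 1 naive library and were kept in 2iL, a mixture of a MEK inhibitor, a GSK3 inhibitor and the cytokine LIF. The primed state had 1 library of Oct4GIP cells, whose eGFPiresPuro transgene is driven by Oct4 regulatory sequence and which grew on fibronectin in FGF2 and Activin A, and 1 library of 129/MSM cells, a line from a cross of 129X1/SvJ and MSM/Ms mice that grew with the same factors on mouse embryonic fibroblast (MEF) feeders. The medium differed as well, being serum-free for primed Oct4GIP cells and holding serum replacement for primed 129/MSM cells. The study lists Rex1-GFP and Oct4GIP cells as XX and 129/MSM cells as XY, so sex differed together with the line. The d8 and d16 groups held 4 libraries each of unsorted Oct4GIP cultures after 8 or 16 days on MEF feeders in Basal medium alone, with 2iL, with the AMPK activator AICAR, or with AICAR+LIF. Oct4GIP cells that had received AICAR or AICAR+LIF until d16 were then expanded in 2iL for 2 or 3 passages, which gave 4 libraries (d16+2-3p). Expansion for 10 passages gave 7 libraries (d16+10p). In 5 of them the cells were Oct4GIP and the activator until d16 was AICAR or A769662, each with and without LIF, or metformin with LIF. In the other 2 they were 129/MSM, treated with AICAR with or without LIF. Medium, feeders and time in culture changed together with the state, and their parts in a difference between states cannot be told apart.

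Glycolysis breaks glucose down to pyruvate in the cytosol. Glucose enters through transporters, is trapped by hexokinases, committed by phosphofructokinase and split by aldolase, and the lower reactions then yield ATP and pyruvate. Pyruvate is either reduced to lactate by lactate dehydrogenase and exported by monocarboxylate transporters, or carried into mitochondria and oxidized to acetyl-CoA by the pyruvate dehydrogenase complex, which pyruvate dehydrogenase kinases switch off. Primed mEpiSCs are known for a strongly glycolytic metabolism, naive mESCs for the use of both glycolysis and respiration, and the hypoxia-inducible factor HIF1 and MYC are known activators of many of these genes.

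The deposited values were read counts per gene, which summed to between 438771 and 5290163 per library, with the lowest total in AICAR+LIF d8, followed by AICAR d8 with 956357 and by the AICAR library at d16+10p with 1689495. Levels are given as CPM (counts per 1e6 counts) after scaling with TMM factors, which correct for differences in RNA composition. A count of 3 or fewer was treated as the floor, which is 0.567 CPM in the deepest and 6.84 CPM in the shallowest library before TMM scaling. Changes are log2 fold changes with their standard error (SE) from the quasi-likelihood test of edgeR, fitted over all genes that passed a filter on low counts, and called at a Benjamini-Hochberg adjusted p-value under 0.05. The 6 naive marker genes summed to 17.7 and 27.8 CPM in the primed libraries, to 13.7 to 49.4 CPM in the d8 cultures and to 64.6 to 78.6 CPM in the d16 cultures. They summed to 2120 to 2600 CPM at d16+2-3p, to 2770 to 3860 CPM at d16+10p and to 3290 CPM in naive mESCs. The sums were thus high in the expanded libraries and low in the whole cultures. The study saw some naive-like cells in AICAR cultures at d16 and proposes that they were possibly too few to shape the bulk profile. Since the libraries are bulk samples, fewer cells of a type and less RNA per cell cannot be told apart.

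At d16+10p, 17 of the 36 genes (47.2%) were lower than in primed cells, against 19.9% of all 18739 genes tested, and 4 (11.1%) were higher, against 16.7%. The lower genes ran from glucose transport to lactate export and included Slc16a3, Eno2, Pfkl, Ldha, Pgk1 and Tpi1, whereas Hk1, Ldhb, Mpc1 and Pdha1 were the 4 higher genes. The median log2 fold change was -0.71 over the 36 genes and -0.01 over all genes. All 17 lower and all 4 higher genes moved in the same direction in the Oct4GIP and in the 129/MSM libraries, which are the same libraries that gave the calls. For this the lines were separate groups within 1 fit of all 22 libraries. With only the primed Oct4GIP library left as the reference, that is without primed 129/MSM, 7 genes remained lower and Slc2a1, Slc2a3, Pfkfb3, Pgam1, Bpgm, Pkm, Ldha, Slc16a1, Slc16a3, Mpc1 and Pdk1 lost their call. Without that library 2712 of 18581 genes were lower and 2635 higher, and 6 of the 36 were higher, with Pfkfb2, Pdk3 and Pdk4 gained. Pfkl, Tpi1, Ldhb and Pdha1 passed in all 19 alternatives tried, and Eno2 in the 18 in which it had enough counts to be tested.

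Feeder markers were lower as well at d16+10p than in primed cells, with 9 of 12 lower and 1 (Fn1, a matrix protein, named after its value was seen) higher and a median log2 fold change of -5.31. Their sums were 468 CPM in primed Oct4GIP cells, 2190 CPM in primed 129/MSM cells, which grew on feeders, and 2590 to 3290 CPM at d16+10p. The sum was 2100 CPM in naive mESCs, which the study kept on gelatin, with 7 of the 12 markers at the floor. A sum over these markers is therefore not a measure of feeder cells alone, here or in the other groups. S100a4, Dcn, Postn, Tagln and Lum were at the floor in every d16+10p library. The part of feeder cells in these changes was not tested.

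Before expansion, 17 genes (47.2%; 19.4% of all genes) were lower and 6 (16.7%; 18.1% of all genes) higher in the d8 and d16 cultures than in primed cells, with a median log2 fold change of -0.69 against 0.04 over all genes. Of the 6 higher genes, edgeR called 0 without primed 129/MSM and 1 without primed Oct4GIP. Over the alternatives the log2 fold change was 1.44 to 1.88 for Pfkfb4 (1.65 with all libraries), 0.91 to 1.15 for Mpc2 (1.02) and 0.66 to 0.92 for Bpgm (0.8). Markers of other cell types were higher as well: feeder markers summed to 5670 to 55100 CPM against 468 (Oct4GIP) and 2190 CPM (129/MSM) in the primed libraries, 8 of 12 of them passed, as did 6 of 8 neural markers, and of 3 pluripotency markers 2 were lower and 1 higher. Their part in the changes of the 36 genes was not tested. From d8 and d16 to d16+2-3p, when feeder markers summed to 1780 to 2370 CPM, 12 genes (33.3%) rose and 12 (33.3%) fell, beside 34.2% and 36.6% of all genes. At d16+10p, edgeR called Hk1 and Ldhb (5.56%) higher and 0 genes lower than at d16+2-3p, against 4.75% and 4.61% of all genes. At an unadjusted p under 0.05, 0 genes were lower there, and DESeq2 and limma voom also called 0 lower genes. When only the 2 groups compared were fitted, 12 of 34 genes were higher, against 1608 of all 13462 genes, and in Oct4GIP libraries only Pdk1 was lower.

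**Figure D1:**
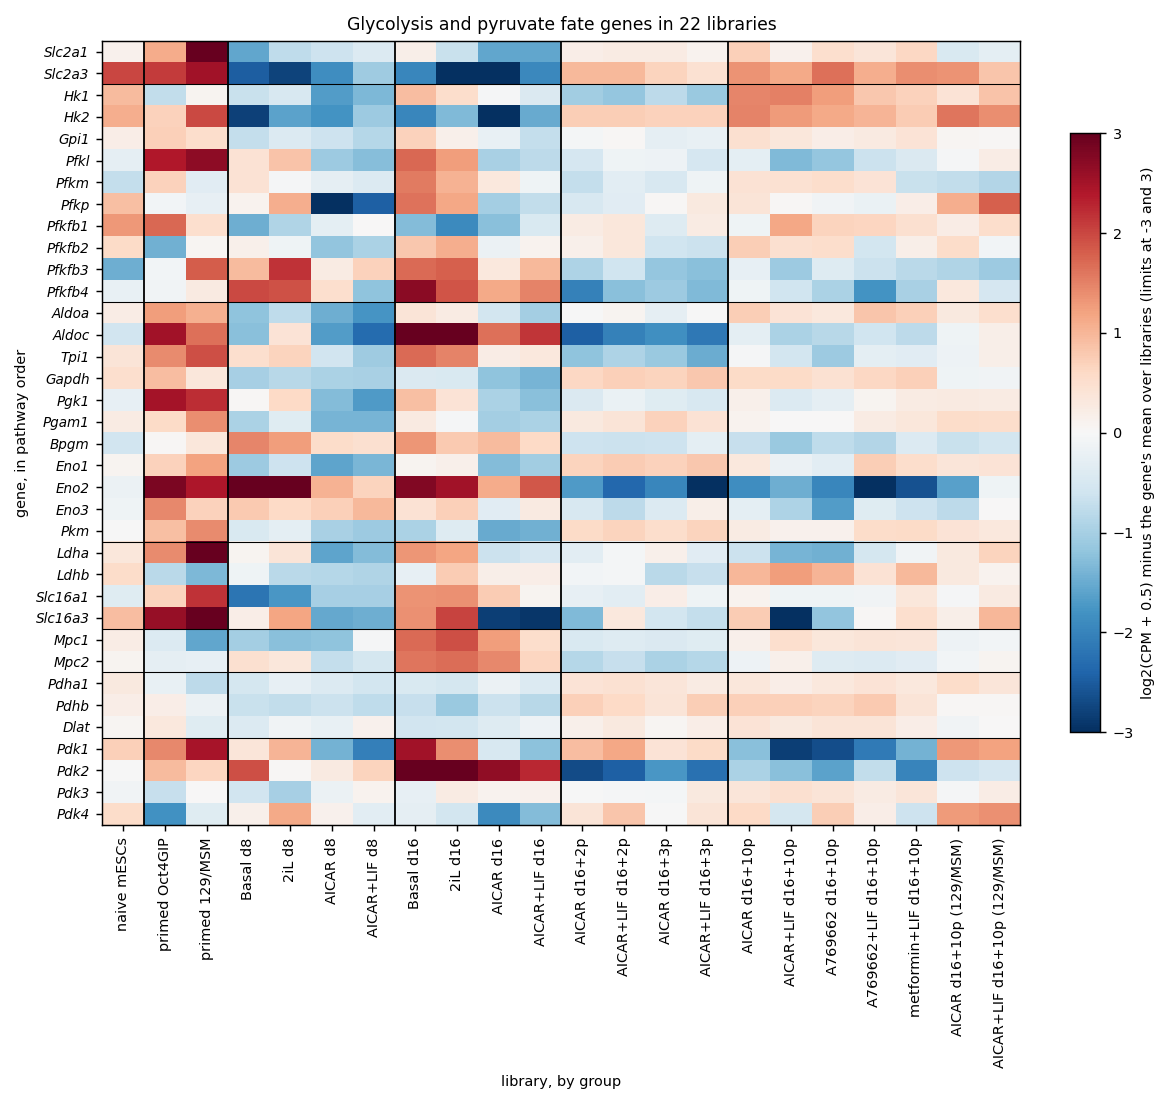
Heat map of the 36 genes (vertical, in pathway order) in the 22 libraries (horizontal, grouped by state), coloured by log2(CPM + 0.5) minus the gene's mean over the libraries, with colours limited at -3 and 3. Both primed libraries are red for Pfkl, Pgk1, Eno2, Ldha and Slc16a3, which are paler or blue at d16+10p, while Ldhb is blue in the primed pair and red in most d16+10p libraries.

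Where 4 values are given at d16+2-3p, they are those of AICAR d16+2p, AICAR+LIF d16+2p, AICAR d16+3p and AICAR+LIF d16+3p, and the 4 values at d8 and at d16 those of Basal medium, 2iL, AICAR and AICAR+LIF. Positions are on GRCm38.

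Both glucose transporters were lower at d16+10p than in primed cells, and both were lower in the cultures before expansion than at d16+2-3p, whereas of the 2 hexokinases Hk1 was higher at d16+10p and Hk2 had no call. Slc2a1 (ENSMUSG00000028645, chromosome 4, 119108711 to 119137983), the widely expressed glucose transporter GLUT1, was at 265 CPM in primed Oct4GIP and 1240 CPM in primed 129/MSM mEpiSCs. Slc2a1 was at 133 CPM in naive mESCs and at 88.2 to 200 CPM (median 156) at d16+10p. Slc2a1 stood at 139, 145, 144 and 132 CPM at d16+2-3p, at 41.3, 71.7, 79.5 and 90.9 CPM at d8 and at 137, 76.6, 40.9 and 41 CPM at d16. The 129/MSM library stood far above every other one, and every d16+10p library lay below both primed libraries (log2 fold change -2.35 ± 0.4 SE, adjusted p = 0.000105). The log2 fold change was -0.65 in Oct4GIP and -3.72 in 129/MSM, and the difference between the lines itself passed the test (difference -3.08, SE 0.7, adjusted p = 0.0309), the only such gene among the 36, where 1.38% of all genes passed. Each line had 1 primed library, so the spread behind this test came from the other groups. The primed libraries of the lines also differed in feeders and medium, so line and culture cannot be told apart. Slc2a3 (ENSMUSG00000003153, chromosome 6, 122727809 to 122801640), the high-affinity transporter GLUT3 of neurons and early embryos, was at 2080 CPM in primed Oct4GIP and 2788 CPM in primed 129/MSM mEpiSCs. Slc2a3 was at 1944 CPM in naive mESCs and at 867 to 1521 CPM (median 1239) at d16+10p. Slc2a3 stood at 957, 955, 776 and 664 CPM at d16+2-3p, at 86.9, 70.5, 132 and 231 CPM at d8 and at 125, 55.8, 47.4 and 127 CPM at d16. The 8 cultures, at most 231 CPM, lay far below all other libraries (log2 fold change -4.52 ± 0.31 SE, adjusted p = 5.16e-09 against primed cells), and the d16+2-3p libraries were all above the cultures (log2 change 2.99, adjusted p = 5.94e-09). The d16+10p libraries were again below both primed ones (log2 change -1.05, adjusted p = 0.0184).

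Hk1 (ENSMUSG00000037012, chromosome 10, 62268855 to 62379908), the hexokinase bound to mitochondria in most tissues, was at 60.3 CPM in primed Oct4GIP and 106 CPM in primed 129/MSM mEpiSCs. Hk1 was at 195 CPM in naive mESCs and at 135 to 287 CPM (median 182) at d16+10p. Hk1 stood at 48.6, 44.5, 58.1 and 46.7 CPM at d16+2-3p, at 63.7, 72.2, 31.2 and 39.5 CPM at d8 and at 193, 146, 98 and 74.5 CPM at d16. All 7 d16+10p libraries exceeded both primed libraries (log2 fold change 1.33 ± 0.36 SE, adjusted p = 0.00705) and all 4 at d16+2-3p (log2 fold change 2.08 ± 0.29 SE, adjusted p = 0.000229 for d16+10p against d16+2-3p). Hk1 and Ldhb were the genes of the 36 that edgeR called in that comparison, and both held in every alternative tried. DESeq2 also called Aldoc, and the fit of the 2 groups alone added Slc2a3, Hk2, Gpi1, Aldoa, Aldoc, Tpi1, Pgk1, Mpc1, Mpc2 and Pdk2. Within lines the log2 change from primed cells was 1.93 in Oct4GIP and 0.58 in 129/MSM, and the call was lost without primed Oct4GIP (adjusted p = 0.141). It was lost as well in 129/MSM alone (adjusted p = 0.461), where 2 libraries stood against 1 primed library and the spread came from all libraries. Hk2 (ENSMUSG00000000628, chromosome 6, 82725025 to 82774454), the inducible hexokinase of muscle and of proliferating cells, was at 153 CPM in primed Oct4GIP and 372 CPM in primed 129/MSM mEpiSCs. Hk2 was at 199 CPM in naive mESCs and at 160 to 285 CPM (median 227) at d16+10p. Hk2 stood at 157, 157, 152 and 151 CPM at d16+2-3p, at 13, 30.3, 26.5 and 43.5 CPM at d8 and at 23.6, 36.9, 9.99 and 32.7 CPM at d16. Here the cultures were the low group, with every value under those of the primed and expanded libraries (log2 fold change -3.34 ± 0.32 SE, adjusted p = 2.9e-07 against primed cells, and log2 change 2.57, adjusted p = 7.97e-08 for d16+2-3p against the cultures). The d16+10p libraries lay between the 2 primed levels, around the naive level, and no difference from primed cells was called (log2 change -0.22, adjusted p = 0.672).

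Of the subunits of phosphofructokinase, the committing enzyme of glycolysis, Pfkl was lower at d16+10p than in primed cells and Pfkm and Pfkp had no call. Pfkl (ENSMUSG00000020277, chromosome 10, 77986947 to 78010083), the liver-type subunit, was at 560 CPM in primed Oct4GIP and 677 CPM in primed 129/MSM mEpiSCs. Pfkl was at 87.2 CPM in naive mESCs and at 41.8 to 124 CPM (median 78.6) at d16+10p. Pfkl stood at 74.9, 97, 95.1 and 73.8 CPM at d16+2-3p, at 144, 192, 49.2 and 43.5 CPM at d8 and at 351, 251, 53.7 and 60.6 CPM at d16. Both primed libraries were above every other library, and the fall at d16+10p passed in every alternative tried (log2 fold change -2.99 ± 0.5 SE, adjusted p = 9.26e-05; -3.13 in Oct4GIP and -2.57 in 129/MSM). Pfkm (ENSMUSG00000033065, chromosome 15, 98092589 to 98132451), the muscle-type subunit, was at 158 CPM in primed Oct4GIP and 77.1 CPM in primed 129/MSM mEpiSCs. Pfkm was at 59.6 CPM in naive mESCs and at 52.5 to 141 CPM (median 129) at d16+10p. Pfkm stood at 58.9, 77.6, 70.1 and 88.9 CPM at d16+2-3p, at 132, 95.4, 80.5 and 73.1 CPM at d8 and at 286, 200, 121 and 89.6 CPM at d16. The d16+10p and primed values overlapped, and the difference was not called (log2 change -0.22, adjusted p = 0.722). Pfkp (ENSMUSG00000021196, chromosome 13, 6579768 to 6648777), the platelet-type subunit, was at 184 CPM in primed Oct4GIP and 164 CPM in primed 129/MSM mEpiSCs. Pfkp was at 367 CPM in naive mESCs and at 171 to 684 CPM (median 225) at d16+10p. Pfkp stood at 141, 155, 201 and 240 CPM at d16+2-3p, at 211, 416, 23.7 and 35.6 CPM at d8 and at 604, 436, 97.1 and 118 CPM at d16. The groups overlapped (log2 change 0.81, adjusted p = 0.456 for d16+10p against primed cells), and the 2 highest of the expanded libraries were the 129/MSM ones with 415 and 684 CPM.

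The PFKFB enzymes make and break fructose 2,6-bisphosphate, the strongest activator of phosphofructokinase. Pfkfb3 (ENSMUSG00000026773, chromosome 2, 11471433 to 11554077), the isoform with the highest kinase activity, was at 22.1 CPM in primed Oct4GIP and 82.8 CPM in primed 129/MSM mEpiSCs. Pfkfb3 was at 8.07 CPM in naive mESCs and at 10.6 to 19.4 CPM (median 13.1) at d16+10p. Pfkfb3 stood at 12.1, 15.2, 10.2 and 9.49 CPM at d16+2-3p, at 45.6, 106, 27.5 and 37.6 CPM at d8 and at 77.3, 81.4, 29.3 and 45.9 CPM at d16. The expanded cells were the low group, under both primed libraries at d16+10p (log2 fold change -1.91 ± 0.42 SE, adjusted p = 0.00129) and under all 8 cultures at d16+2-3p (log2 change -2.28, adjusted p = 3.55e-05). Within lines the log2 change from primed cells was -0.56 in Oct4GIP and -2.85 in 129/MSM, and the Oct4GIP range was 10.7 to 19.4 CPM against 22.1 CPM in primed Oct4GIP cells. Pfkfb1 (ENSMUSG00000025271, chromosome X, 150588229 to 150643878), the liver and muscle isoform, was at 20.6 CPM in primed Oct4GIP and 8.53 CPM in primed 129/MSM mEpiSCs. Pfkfb1 was at 15.2 CPM in naive mESCs and at 5.30 to 13.6 CPM (median 8.62) at d16+10p. Pfkfb1 stood at 7.10, 7.61, 4.36 and 7.03 CPM at d16+2-3p, at 1.81, 2.90, 4.73 and 5.93 CPM at d8 and at 2.07, 1.20, 2.18 and 4.14 CPM at d16. Pfkfb1 was lower in the cultures than in primed cells (log2 change -2.35, adjusted p = 0.00013), where 2 of 8 libraries were at the floor. Pfkfb4 (ENSMUSG00000025648, chromosome 9, 108991778 to 109032228), an isoform induced by hypoxia in many cells, was at 4.78 CPM in primed Oct4GIP and 6.32 CPM in primed 129/MSM mEpiSCs. Pfkfb4 was at 4.34 CPM in naive mESCs and at 1.13 to 6.54 CPM (median 3.24) at d16+10p. Pfkfb4 stood at 0.888, 1.90, 2.18 and 1.76 CPM at d16+2-3p, at 22.1, 20.7, 7.57 and 1.98 CPM at d8 and at 36.6, 20.5, 11.9 and 15.4 CPM at d16. It was higher in the cultures than in primed cells (log2 change 1.65, adjusted p = 0.0366) and lower at d16+2-3p than in the cultures (log2 change -3.36, adjusted p = 1.04e-05), with ranges that overlapped in both comparisons because AICAR+LIF d8 had 1 count. Pfkfb2 (ENSMUSG00000026409, chromosome 1, 130689182 to 130729253) ranged over 5.52 to 16.4 CPM in primed cells, 6.63 to 17.7 CPM at d8, 14 to 34.1 CPM at d16, 9.84 to 20.2 CPM at d16+2-3p and 10.6 to 26.5 CPM at d16+10p, with 23.9 CPM in naive mESCs. Pfkfb2, an isoform known from heart, had no call in the comparisons among primed cells, cultures and expanded cells (log2 change 0.83, adjusted p = 0.164 for d16+10p against primed cells). Within the cultures it was higher at d16 than at d8 (log2 change 1.03, adjusted p = 0.0275) and lower with AICAR (log2 change -1.04, adjusted p = 0.0258). Gpi1 (ENSMUSG00000036427, chromosome 7, 34201330 to 34230336) ranged over 734 to 833 CPM in primed cells, 279 to 380 CPM at d8, 311 to 814 CPM at d16, 423 to 517 CPM at d16+2-3p and 520 to 707 CPM at d16+10p, with 584 CPM in naive mESCs. Gpi1, whose enzyme turns glucose 6-phosphate into fructose 6-phosphate, was lower in the cultures than in primed cells (log2 change -0.91, adjusted p = 0.00219), and at d16+10p it lay below both primed libraries without a call (log2 change -0.36, adjusted p = 0.219).

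Among the aldolases and the enzymes of the later steps, Eno2, Aldoc, Pgk1, Tpi1 and Eno3 had the largest falls from primed to d16+10p cells (log2 fold changes of -4.37 to -1.77), Pkm, Pgam1 and Bpgm fell by less than 1 on the log2 scale, and Aldoa, Gapdh and Eno1 had no call. Aldoa (ENSMUSG00000030695, chromosome 7, 126795234 to 126800751), the main aldolase, was at 2127 CPM in primed Oct4GIP and 1859 CPM in primed 129/MSM mEpiSCs. Aldoa was at 1032 CPM in naive mESCs and at 1091 to 1590 CPM (median 1255) at d16+10p. Aldoa stood at 877, 941, 732 and 879 CPM at d16+2-3p, at 382, 524, 320 and 259 CPM at d8 and at 1163, 1049, 602 and 435 CPM at d16. Every d16+10p library lay below both primed libraries, yet the difference did not pass (log2 change -0.61, adjusted p = 0.0814), and the cultures were lower than primed cells (log2 change -1.86, adjusted p = 1.34e-05). Aldoc (ENSMUSG00000017390, chromosome 11, 78322968 to 78327781), the aldolase of brain, was at 182 CPM in primed Oct4GIP and 99.2 CPM in primed 129/MSM mEpiSCs. Aldoc was at 20.8 CPM in naive mESCs and at 15.9 to 35.3 CPM (median 20.3) at d16+10p. Aldoc stood at 5.33, 7.23, 8.35 and 6.68 CPM at d16+2-3p, at 12.7, 41.9, 9.47 and 5.93 CPM at d8 and at 539, 1134, 99.5 and 140 CPM at d16. Aldoc was high in primed cells and highest in Basal and 2iL cultures at d16, and at most 35.3 CPM in every expanded library (log2 fold change -2.63 ± 0.57 SE, adjusted p = 0.00106 for d16+10p against primed cells). Tpi1 (ENSMUSG00000023456, chromosome 6, 124810586 to 124814296), triosephosphate isomerase, was at 582 CPM in primed Oct4GIP and 829 CPM in primed 129/MSM mEpiSCs. Tpi1 was at 285 CPM in naive mESCs and at 102 to 247 CPM (median 177) at d16+10p. Tpi1 stood at 94.7, 114, 101 and 77 CPM at d16+2-3p, at 309, 348, 145 and 103 CPM at d8 and at 707, 614, 256 and 273 CPM at d16. The d16+10p libraries were all below both primed libraries (log2 fold change -1.98 ± 0.36 SE, adjusted p = 0.000213; -1.85 in Oct4GIP and -1.9 in 129/MSM), and d16+2-3p was lower than the cultures (log2 change -1.75, adjusted p = 9.77e-05).

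Gapdh (ENSMUSG00000057666, chromosome 6, 125161715 to 125166467), the dehydrogenase of glyceraldehyde 3-phosphate and a common reference gene, was at 1823 CPM in primed Oct4GIP and 1202 CPM in primed 129/MSM mEpiSCs. Gapdh was at 1361 CPM in naive mESCs and at 869 to 1568 CPM (median 1418) at d16+10p. Gapdh stood at 1464, 1561, 1516 and 1661 CPM at d16+2-3p, at 479, 532, 494 and 484 CPM at d8 and at 705, 692, 416 and 363 CPM at d16. Gapdh separated the cultures from all other libraries: it was lower there than in primed cells (log2 fold change -1.54 ± 0.22 SE, adjusted p = 2.83e-05) and rose to d16+2-3p (log2 change 1.58, adjusted p = 1.75e-07), without a call between d16+10p and primed cells (log2 change -0.24, adjusted p = 0.463). Pgk1 (ENSMUSG00000062070, chromosome X, 106187100 to 106203699), the kinase of the first ATP-yielding step, was at 1679 CPM in primed Oct4GIP and 1385 CPM in primed 129/MSM mEpiSCs. Pgk1 was at 252 CPM in naive mESCs and at 225 to 357 CPM (median 330) at d16+10p. Pgk1 stood at 219, 258, 232 and 215 CPM at d16+2-3p, at 304, 453, 120 and 90.9 CPM at d8 and at 554, 396, 154 and 125 CPM at d16. Both primed libraries stood above all the others, and Pgk1 was lower than in primed cells at d16+10p (log2 fold change -2.3 ± 0.42 SE, adjusted p = 0.000208) and in the cultures (log2 change -2.47, adjusted p = 0.000101). Pgam1 (ENSMUSG00000011752, chromosome 19, 41911923 to 41918660), phosphoglycerate mutase, was at 655 CPM in primed Oct4GIP and 1157 CPM in primed 129/MSM mEpiSCs. Pgam1 was at 521 CPM in naive mESCs and at 443 to 642 CPM (median 526) at d16+10p. Pgam1 stood at 542, 580, 714 and 592 CPM at d16+2-3p, at 230, 345, 167 and 168 CPM at d8 and at 532, 434, 219 and 229 CPM at d16. All d16+10p libraries lay below both primed libraries, the nearest with 642 CPM (log2 change -0.77, adjusted p = 0.0438), and this call was lost in 8 of 19 alternatives. Bpgm (ENSMUSG00000038871, chromosome 6, 34476207 to 34505613), which makes 2,3-bisphosphoglycerate, was at 21.7 CPM in primed Oct4GIP and 26.8 CPM in primed 129/MSM mEpiSCs. Bpgm was at 14 CPM in naive mESCs and at 9.41 to 15.8 CPM (median 12.9) at d16+10p. Bpgm stood at 13.6, 13.3, 13.4 and 17.2 CPM at d16+2-3p, at 58.6, 51, 31.2 and 29.6 CPM at d8 and at 53.2, 36.9, 41.2 and 32 CPM at d16. Bpgm was highest in the cultures, above both primed libraries (log2 change 0.8, adjusted p = 0.0203), and lowest in expanded cells (log2 change -0.93, adjusted p = 0.00553 for d16+10p against primed cells).

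Eno1 (ENSMUSG00000063524, chromosome 4, 150236721 to 150248879), the main enolase, was at 1120 CPM in primed Oct4GIP and 1580 CPM in primed 129/MSM mEpiSCs. Eno1 was at 731 CPM in naive mESCs and at 550 to 1147 CPM (median 879) at d16+10p. Eno1 stood at 1085, 1168, 1106 and 1210 CPM at d16+2-3p, at 323, 445, 228 and 265 CPM at d8 and at 732, 769, 281 and 332 CPM at d16. Eno1 was lower in every culture than in every primed and d16+2-3p library (log2 change -1.72, adjusted p = 0.000139 against primed cells, and log2 change 1.48, adjusted p = 1.56e-05 for d16+2-3p against the cultures), and d16+10p was not called against primed cells (log2 change -0.67, adjusted p = 0.102). Eno2 (ENSMUSG00000004267, chromosome 6, 124760053 to 124769673), the neuronal enolase, was at 72.5 CPM in primed Oct4GIP and 55 CPM in primed 129/MSM mEpiSCs. Eno2 was at 8.69 CPM in naive mESCs and at 0.754 to 9.01 CPM (median 2.35) at d16+10p. Eno2 stood at 2.66, 1.52, 2.18 and 0.703 CPM at d16+2-3p, at 101, 113, 20.8 and 15.8 CPM at d8 and at 70.4, 58.6, 21.8 and 37.3 CPM at d16. Eno2 had the largest fall of the 36 genes from primed cells to d16+10p (log2 fold change -4.37 ± 0.58 SE, adjusted p = 7.09e-06), with 1 of 7 libraries at the floor and no library above 9.01 CPM, and it was also lower at d16+2-3p than in the cultures (log2 change -4.92, adjusted p = 1.44e-06). Eno3 (ENSMUSG00000060600, chromosome 11, 70657202 to 70662513), the muscle enolase, was at 30.5 CPM in primed Oct4GIP and 17.7 CPM in primed 129/MSM mEpiSCs. Eno3 was at 9.93 CPM in naive mESCs and at 3.08 to 11 CPM (median 6.85) at d16+10p. Eno3 stood at 7.70, 6.09, 7.99 and 12.3 CPM at d16+2-3p, at 19.2, 16.6, 18 and 21.7 CPM at d8 and at 14.9, 18.1, 8.43 and 13.2 CPM at d16. The d16+10p libraries were below both primed libraries (log2 fold change -1.77 ± 0.34 SE, adjusted p = 0.000316; -2.25 in Oct4GIP and -1.04 in 129/MSM). Pkm (ENSMUSG00000032294, chromosome 9, 59656368 to 59679375), pyruvate kinase, whose splice forms M1 and M2 differ by 1 exon, was at 2724 CPM in primed Oct4GIP and 3875 CPM in primed 129/MSM mEpiSCs. Pkm was at 1438 CPM in naive mESCs and at 1597 to 2184 CPM (median 1830) at d16+10p. Pkm stood at 2179, 2330, 2114 and 2323 CPM at d16+2-3p, at 1069, 1183, 743 and 680 CPM at d8 and at 751, 1107, 510 and 539 CPM at d16. Pkm fell in the cultures (log2 fold change -2.01 ± 0.21 SE, adjusted p = 1.09e-06 against primed cells) and was lower than in primed cells at d16+10p as well (log2 change -0.83, adjusted p = 0.00801), where the change was -0.56 in Oct4GIP and -1.04 in 129/MSM. Reads that match near-identical copies can be lost or placed on either copy, and the annotated copies held counts equal to 66.8% to 84.4% of Eno1 (Eno1b), 22.3% to 47.8% of Pgk1 (Pgk1-rs7), 5.89% to 22.9% of Gapdh (Gapdh-ps16) and 11.5% to 16.2% of Pgam1 (Pgam1-ps2). Summing each gene with its copies ended no call.

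**Figure D2:**
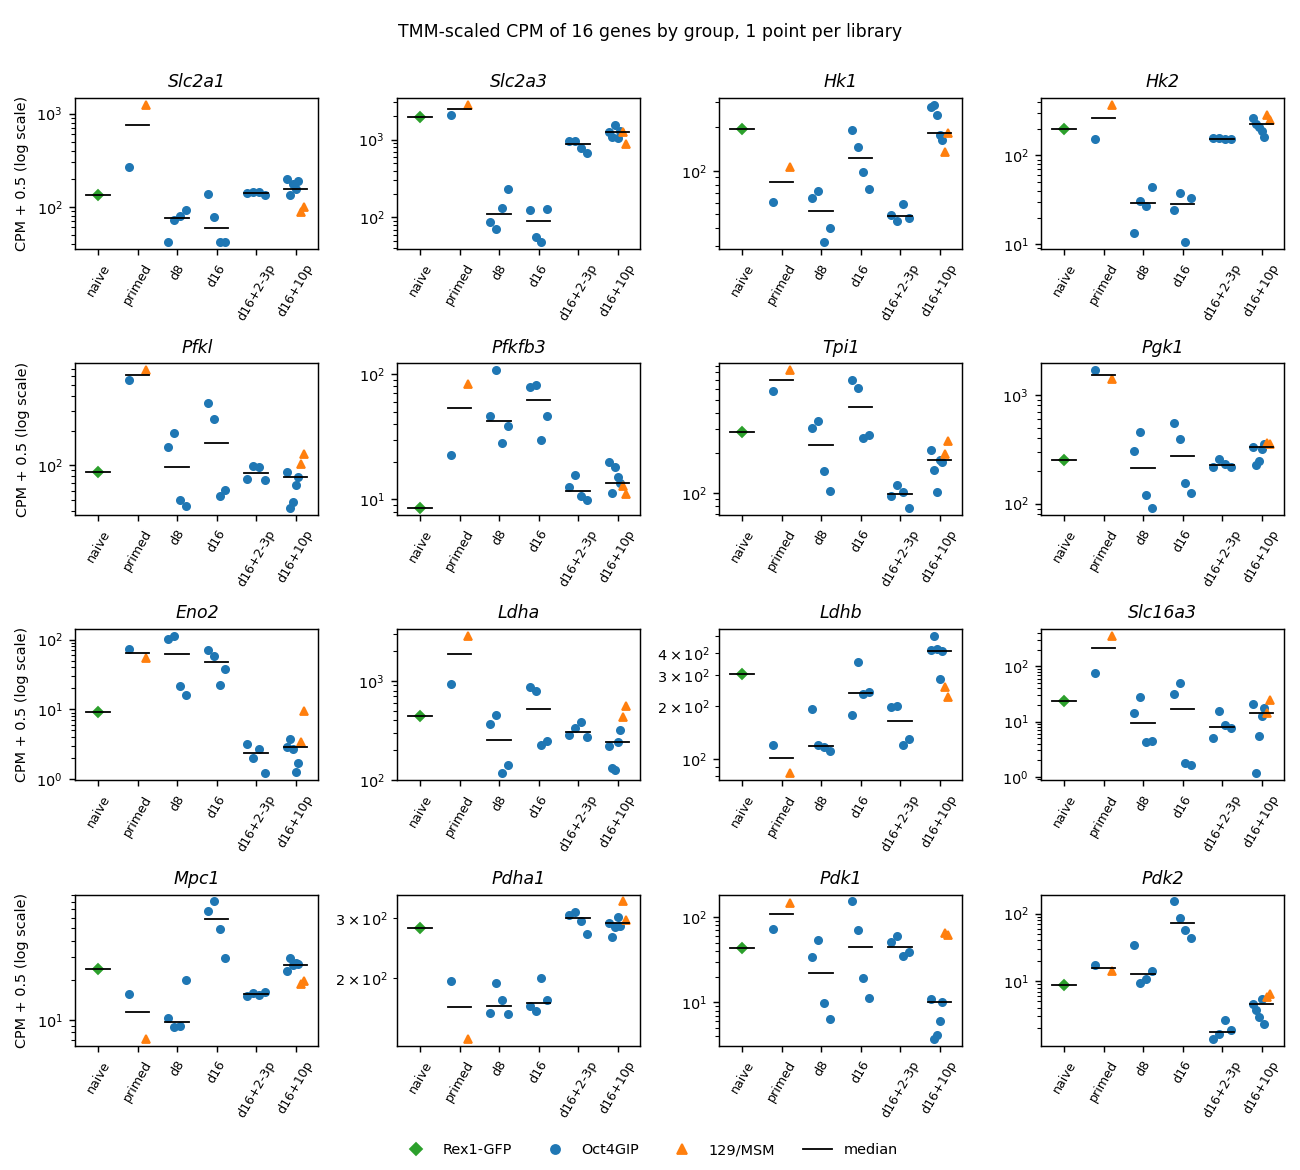
Levels of 16 genes as CPM + 0.5 on a log scale (vertical) in the 6 groups (horizontal), with 1 point per library, coloured and shaped by cell line, and the group median as a line. Pfkl, Pgk1 and Ldha are highest in the primed pair, Eno2 is at most 9.01 CPM in the expanded cells, Ldhb and Hk1 are higher at d16+10p than in the primed pair, and Pdk1 at d16+10p separates the lines, with 61.5 and 64.9 CPM in 129/MSM against at most 10.6 CPM in Oct4GIP.

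The lactate dehydrogenase subunits moved in opposite directions. Ldha (ENSMUSG00000063229, chromosome 7, 46841475 to 46855627), the subunit that favours reduction of pyruvate to lactate, was at 931 CPM in primed Oct4GIP and 2852 CPM in primed 129/MSM mEpiSCs. Ldha was at 438 CPM in naive mESCs and at 127 to 554 CPM (median 240) at d16+10p. Ldha stood at 281, 335, 384 and 273 CPM at d16+2-3p, at 369, 455, 116 and 140 CPM at d8 and at 875, 795, 224 and 245 CPM at d16. Every d16+10p library was below both primed libraries (log2 fold change -2.71 ± 0.52 SE, adjusted p = 0.000383), with -2.16 in Oct4GIP and -2.54 in 129/MSM. Without the primed 129/MSM library, the highest of all with 2852 CPM, the call was lost (adjusted p = 0.0575). Ldhb (ENSMUSG00000030246, chromosome 6, 142490249 to 142507957), the subunit that favours oxidation of lactate, was at 120 CPM in primed Oct4GIP and 82.4 CPM in primed 129/MSM mEpiSCs. Ldhb was at 305 CPM in naive mESCs and at 225 to 501 CPM (median 412) at d16+10p. Ldhb stood at 198, 201, 119 and 129 CPM at d16+2-3p, at 191, 120, 116 and 111 CPM at d8 and at 178, 357, 235 and 239 CPM at d16. The order was the reverse, with all d16+10p libraries above both primed libraries (log2 fold change 1.83 ± 0.35 SE, adjusted p = 0.000299), 1.77 in Oct4GIP and 1.55 in 129/MSM, and above all d16+2-3p libraries (log2 change 1.16, adjusted p = 0.00542). Ldhb kept these calls in every alternative tried.

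Both lactate exporters were lower at d16+10p than in primed cells. Slc16a1 (ENSMUSG00000032902, chromosome 3, 104638668 to 104658462), the monocarboxylate transporter MCT1, was at 276 CPM in primed Oct4GIP and 788 CPM in primed 129/MSM mEpiSCs. Slc16a1 was at 136 CPM in naive mESCs and at 158 to 220 CPM (median 169) at d16+10p. Slc16a1 stood at 146, 140, 200 and 160 CPM at d16+2-3p, at 37.6, 51.8, 87.1 and 87 CPM at d8 and at 444, 453, 294 and 184 CPM at d16. All expanded libraries were below both primed libraries (log2 fold change -1.56 ± 0.31 SE, adjusted p = 0.000544), although the Oct4GIP range reached 220 CPM against 276 CPM in primed Oct4GIP cells and the call was lost within that line (adjusted p = 0.251). Slc16a3 (ENSMUSG00000025161, chromosome 11, 120948480 to 120960868), the lactate exporter MCT4 of strongly glycolytic cells, was at 75.4 CPM in primed Oct4GIP and 355 CPM in primed 129/MSM mEpiSCs. Slc16a3 was at 23 CPM in naive mESCs and at 0.649 to 24.3 CPM (median 13.5) at d16+10p. Slc16a3 stood at 4.44, 14.8, 7.99 and 7.03 CPM at d16+2-3p, at 13.8, 27.8, 3.79 and 3.95 CPM at d8 and at 31.5, 50.1, 1.25 and 1.13 CPM at d16. Slc16a3 ranged from 2 counts in AICAR+LIF d16+10p (0.649 CPM) to 355 CPM in primed 129/MSM cells, and d16+10p was lower than primed (log2 fold change -4.04 ± 0.82 SE, adjusted p = 0.000601; -2.82 in Oct4GIP and -4.23 in 129/MSM). Without the primed 129/MSM library this call was lost (adjusted p = 0.0787).

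The promoter sequences are shown for genes on both sides of these changes, because ACGTG, the core of the hypoxia response element, is the letter pattern through which HIF1 is known to act on glycolytic genes. The sequences are the 250 bases before the RefSeq gene start on GRCm38.p6, written 5′ to 3′ in the direction of the gene, with every ACGTG on either strand in capitals. A palindromic CACGTG holds 1 ACGTG on each strand. Ldha (chr7:46845554-46845803, plus strand), Slc16a3 (chr11:120948817-120949066, plus strand), Pgk1 (chrX:106186850-106187099, plus strand) and Slc2a1 (chr4:119108495-119108744, plus strand) were lower at d16+10p and hold the pattern. Pdk1 (chr2:71872974-71873223, plus strand) was lower and does not. Pfkl, Tpi1 and Eno2, whose sequences are not shown, were lower as well and hold no ACGTG before their starts. Ldha has a second RefSeq start (chr7:46846832-46847081, plus strand) and the bases before it hold no ACGTG. The 40 bases after that start lie near the beginning of 1 GENCODE transcript, those after the first start of 0. Ldhb (chr6:142507958-142508207, minus strand) and Hk1 (chr10:62379909-62380158, minus strand) were higher and do not hold it before these starts.
Ldha: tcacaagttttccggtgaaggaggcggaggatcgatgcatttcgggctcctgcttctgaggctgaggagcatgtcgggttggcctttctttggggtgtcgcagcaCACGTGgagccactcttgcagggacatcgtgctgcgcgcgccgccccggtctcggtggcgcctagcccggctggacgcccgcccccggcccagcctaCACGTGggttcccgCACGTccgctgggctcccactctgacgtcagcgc
Ldha, second start: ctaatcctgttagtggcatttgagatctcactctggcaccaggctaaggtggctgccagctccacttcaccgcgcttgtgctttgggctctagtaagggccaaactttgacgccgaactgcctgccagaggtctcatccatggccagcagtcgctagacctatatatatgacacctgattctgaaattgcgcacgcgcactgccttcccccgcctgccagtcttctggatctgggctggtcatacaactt
Slc16a3: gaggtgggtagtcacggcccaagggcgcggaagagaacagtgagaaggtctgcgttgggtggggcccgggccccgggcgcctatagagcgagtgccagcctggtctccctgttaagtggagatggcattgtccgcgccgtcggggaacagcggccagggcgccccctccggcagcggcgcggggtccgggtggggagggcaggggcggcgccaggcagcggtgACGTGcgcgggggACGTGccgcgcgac
Pgk1: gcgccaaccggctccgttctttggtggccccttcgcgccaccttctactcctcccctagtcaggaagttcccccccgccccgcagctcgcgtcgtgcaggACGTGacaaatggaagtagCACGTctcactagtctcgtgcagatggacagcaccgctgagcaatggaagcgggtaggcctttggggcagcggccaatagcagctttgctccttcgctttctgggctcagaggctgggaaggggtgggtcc
Slc2a1: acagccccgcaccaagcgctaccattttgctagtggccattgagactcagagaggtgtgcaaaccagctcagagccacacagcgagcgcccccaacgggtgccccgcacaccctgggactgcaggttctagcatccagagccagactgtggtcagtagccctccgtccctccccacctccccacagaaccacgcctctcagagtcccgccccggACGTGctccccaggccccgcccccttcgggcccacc
Pdk1: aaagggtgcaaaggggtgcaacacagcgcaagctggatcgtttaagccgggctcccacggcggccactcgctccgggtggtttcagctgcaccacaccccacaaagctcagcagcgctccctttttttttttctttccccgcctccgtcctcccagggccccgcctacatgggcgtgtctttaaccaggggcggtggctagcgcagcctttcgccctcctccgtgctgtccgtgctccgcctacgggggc
Ldhb: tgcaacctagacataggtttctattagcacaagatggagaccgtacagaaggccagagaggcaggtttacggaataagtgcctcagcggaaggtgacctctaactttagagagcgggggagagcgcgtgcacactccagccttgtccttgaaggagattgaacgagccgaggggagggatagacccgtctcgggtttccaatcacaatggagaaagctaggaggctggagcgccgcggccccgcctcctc
Hk1: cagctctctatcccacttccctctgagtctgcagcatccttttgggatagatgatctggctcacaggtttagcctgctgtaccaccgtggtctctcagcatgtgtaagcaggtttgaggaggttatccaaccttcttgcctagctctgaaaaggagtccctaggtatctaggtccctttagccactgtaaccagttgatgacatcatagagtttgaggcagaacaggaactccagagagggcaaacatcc

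The first Ldha sequence holds 5 matches, of which 4 come from 2 CACGTG, the Slc16a3 and Pgk1 sequences hold 2 each and the Slc2a1 sequence holds 1. Over windows of 300 bases, from 250 before to 50 after the start, 18 of the 35 genes with an entry (51.4%) held ACGTG in at least 1 window, against 21.8% of all 27025 genes of the table. Slc2a3 had no entry. CACGTG, which is also the E-box bound by MYC, was held by 6 of the 35 genes (17.1%; 8.09% of all genes), and GGGCGG, the GC box, by 26 (74.3%; 38.2% of all genes). By call in d16+10p against primed cells, 10 of 16 lower genes, 1 of 4 higher genes (Hk1) and 7 of 15 genes without a call held ACGTG. Aldoc (lower), Hk1 (higher) and Gapdh (no call) had 0 matches in the 250 bases before any of their starts. Genes with more annotated starts have more windows, and a match describes the letters alone.

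Of the genes of pyruvate entry and oxidation, Mpc1 and Pdha1 were higher at d16+10p than in primed cells, and of the inhibitory kinases Pdk1 and Pdk2 were lower. Mpc1 (ENSMUSG00000023861, chromosome 17, 8282904 to 8297661), a subunit of the mitochondrial pyruvate carrier, was at 15.1 CPM in primed Oct4GIP and 6.63 CPM in primed 129/MSM mEpiSCs. Mpc1 was at 23.9 CPM in naive mESCs and at 18.4 to 28.9 CPM (median 25.9) at d16+10p. Mpc1 stood at 14.8, 15.6, 14.9 and 15.8 CPM at d16+2-3p, at 9.77, 8.29, 8.52 and 19.8 CPM at d8 and at 67.3, 79.8, 49 and 29.4 CPM at d16. The d16+10p libraries all exceeded both primed libraries (log2 fold change 1.16 ± 0.36 SE, adjusted p = 0.0154), and 3 of the 4 d8 cultures lay at or below 9.77 CPM where every d16 culture was at 29.4 CPM or more. Mpc2 (ENSMUSG00000026568, chromosome 1, 165460637 to 165481214), the partner subunit, was at 11.8 CPM in primed Oct4GIP and 12 CPM in primed 129/MSM mEpiSCs. Mpc2 was at 15.2 CPM in naive mESCs and at 10.6 to 15.9 CPM (median 12.9) at d16+10p. Mpc2 stood at 7.70, 8.75, 7.26 and 7.73 CPM at d16+2-3p, at 20.3, 18.2, 8.52 and 9.88 CPM at d8 and at 44.9, 47.3, 39.6 and 22.6 CPM at d16. Mpc2 had no call between d16+10p and primed cells (log2 change 0.12, adjusted p = 0.806), was higher in the cultures than in primed cells (log2 change 1.02, adjusted p = 0.014) and lower at d16+2-3p than in the cultures (log2 change -1.62, adjusted p = 7.89e-06). Pdha1 (ENSMUSG00000031299, chromosome X, 160122209 to 160138413) ranged over 132 to 195 CPM in primed cells, 156 to 193 CPM at d8, 159 to 200 CPM at d16, 268 to 312 CPM at d16+2-3p and 263 to 335 CPM at d16+10p, with 280 CPM in naive mESCs. Pdha1, the catalytic alpha subunit of pyruvate dehydrogenase, was higher at d16+10p than in primed cells without overlap (log2 fold change 0.84 ± 0.15 SE, adjusted p = 0.000234; 0.54 in Oct4GIP and 1.25 in 129/MSM), and higher at d16+2-3p than in the cultures (log2 change 0.78, adjusted p = 2.75e-06). Pdhb (ENSMUSG00000021748, chromosome 14, 8165996 to 8173025), the beta subunit, was at 136 CPM in primed Oct4GIP and 105 CPM in primed 129/MSM mEpiSCs. Pdhb was at 136 CPM in naive mESCs and at 121 to 203 CPM (median 188) at d16+10p. Pdhb stood at 195, 180, 154 and 197 CPM at d16+2-3p, at 73.8, 70.9, 75.7 and 69.2 CPM at d8 and at 72.4, 54.2, 75.5 and 66.2 CPM at d16. Pdhb set all expanded libraries above the cultures (log2 change 1.38, adjusted p = 5.98e-08 for d16+2-3p) and missed the threshold against primed cells (log2 change 0.48, adjusted p = 0.0663). Dlat (ENSMUSG00000000168, chromosome 9, 50634633 to 50659780) ranged over 68.5 to 110 CPM in primed cells, 66.6 to 96.9 CPM at d8, 59.2 to 78.7 CPM at d16, 91.1 to 108 CPM at d16+2-3p and 81.7 to 117 CPM at d16+10p, with 91.5 CPM in naive mESCs. Dlat, the acetyltransferase of the complex, rose from the cultures to d16+2-3p (log2 change 0.46, adjusted p = 0.00608) and was not called against primed cells at d16+10p (log2 change 0.22, adjusted p = 0.379).

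Pdk1 (ENSMUSG00000006494, chromosome 2, 71873224 to 71903858), the pyruvate dehydrogenase kinase induced by HIF1, was at 71.7 CPM in primed Oct4GIP and 147 CPM in primed 129/MSM mEpiSCs. Pdk1 was at 43.1 CPM in naive mESCs and at 3.24 to 64.9 CPM (median 9.53) at d16+10p. Pdk1 stood at 50.0, 59, 34.8 and 39 CPM at d16+2-3p, at 33.7, 53.1, 9.47 and 5.93 CPM at d8 and at 152, 69.4, 18.7 and 10.9 CPM at d16. At d16+10p the 5 Oct4GIP libraries held 3.24 to 10.6 CPM and the 129/MSM libraries 64.9 and 61.5 CPM, and this difference between lines passed the test (log2 fold change 3.31, SE 0.73, adjusted p = 0.0148; 3.07% of all genes passed). Against primed cells the pooled call (log2 change -2.28, adjusted p = 0.0438) was lost in 11 of 18 alternatives, and the change was -3.49 in Oct4GIP and -1.22 in 129/MSM, a difference between lines that did not pass (adjusted p = 0.483). The Oct4GIP libraries at d16+10p were also below all 4 of that line at d16+2-3p. Pdhb was the other member that differed between the lines at d16+10p (-0.63 for 129/MSM against Oct4GIP, adjusted p = 0.0268).

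Pdk2 (ENSMUSG00000038967, chromosome 11, 95026258 to 95041354), the most widely expressed of these kinases, was at 16.9 CPM in primed Oct4GIP and 13.6 CPM in primed 129/MSM mEpiSCs. Pdk2 was at 8.38 CPM in naive mESCs and at 1.79 to 5.88 CPM (median 4.12) at d16+10p. Pdk2 stood at 0.888, 1.14, 2.18 and 1.41 CPM at d16+2-3p, at 33.7, 8.71, 10.4 and 13.8 CPM at d8 and at 151, 86.3, 56.2 and 42.5 CPM at d16. Pdk2 was highest at d16 and lowest at d16+2-3p (log2 fold change -4.75 ± 0.51 SE, adjusted p = 6.7e-08 against the cultures), where 2 of 4 libraries were at the floor, and d16+10p lay below primed cells (log2 change -1.96, adjusted p = 0.00268). Pdk3 (ENSMUSG00000035232, chromosome X, 93764607 to 93832201), a further kinase of this family, was at 19.1 CPM in primed Oct4GIP and 31.6 CPM in primed 129/MSM mEpiSCs. Pdk3 was at 29.2 CPM in naive mESCs and at 30.6 to 44.1 CPM (median 40.2) at d16+10p. Pdk3 stood at 30.8, 30.4, 29.8 and 38.3 CPM at d16+2-3p, at 21, 15.3, 27.5 and 33.6 CPM at d8 and at 26.4, 37.3, 33.4 and 34.3 CPM at d16. The levels of Pdk3 lay within 15.3 and 44.1 CPM in all libraries, and edgeR called no difference for d16+10p against primed cells (log2 change 0.6, adjusted p = 0.0568), whereas DESeq2 and limma voom called it higher. Pdk4 (ENSMUSG00000019577, chromosome 6, 5483351 to 5496309), the kinase induced by fasting and fatty acids, was at 0.368 CPM in primed Oct4GIP and 1.90 CPM in primed 129/MSM mEpiSCs. Pdk4 was at 4.03 CPM in naive mESCs and at 1.49 to 7.45 CPM (median 4.12) at d16+10p. Pdk4 stood at 3.55, 4.94, 2.54 and 3.51 CPM at d16+2-3p, at 2.90, 6.22, 2.84 and 1.98 CPM at d8 and at 2.07, 1.60, 0.312 and 0.753 CPM at d16. Pdk4 was near the floor, with 1 of 2 primed, 2 of 4 d8 and 2 of 4 d16 libraries at 3 counts or fewer, and had no call (log2 change 1.79, adjusted p = 0.0634 for d16+10p against primed cells).

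Shares of isozymes within a family were computed from counts scaled by transcript length and give the composition of each family in each library. Ldhb made up 3.40% to 13.6% of lactate dehydrogenase transcripts in the primed pair, 33.1% to 82.2% (median 60.8%) at d16+10p. It was 45.9% in naive mESCs. Pfkl made up 66.4% and 79.9% of phosphofructokinase transcripts in the primed pair and 13.9% to 30.9% at d16+10p, where Pfkm took the largest share in 4 of 5 Oct4GIP libraries and Pfkp in both 129/MSM libraries. By counts without length scaling, Pfkp led in all 7, with 46.5% to 79.5%, and Pfkm held at most 38.3%. Hk1 held 26.9% and 33.7% of the hexokinase transcripts in primed cells, 53.9% to 92.7% in the cultures, 26.7% to 33.0% at d16+2-3p, 37.9% to 62.0% at d16+10p and 55.8% in naive mESCs. Pdk1 held 45.3% and 56.9% of the kinase transcripts in primed cells and 2.67% to 39.9% at d16+10p, Pdk2 50.6% to 61.4% at d16, and Pdk3 46.2% to 89.2% at d16+10p. Eno1 made up 97.8% to 99.0% of the enolases at d16+10p and Aldoa 98.5% to 99.3% of the aldolases, while Aldoc reached 8.23% to 37.0% at d16. Of the Pkm transcripts, the one with the later exclusive exon (the M2 form, chromosome 9, 59675568 to 59675734) took 61.3% to 66.9% and the one with the earlier exon (M1, 59675029 to 59675195) 33.1% to 38.7% of the counts of both in every library. Reads in exons that both share can be placed on either form, so this split is not a measure of splicing.

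**Figure D3:**
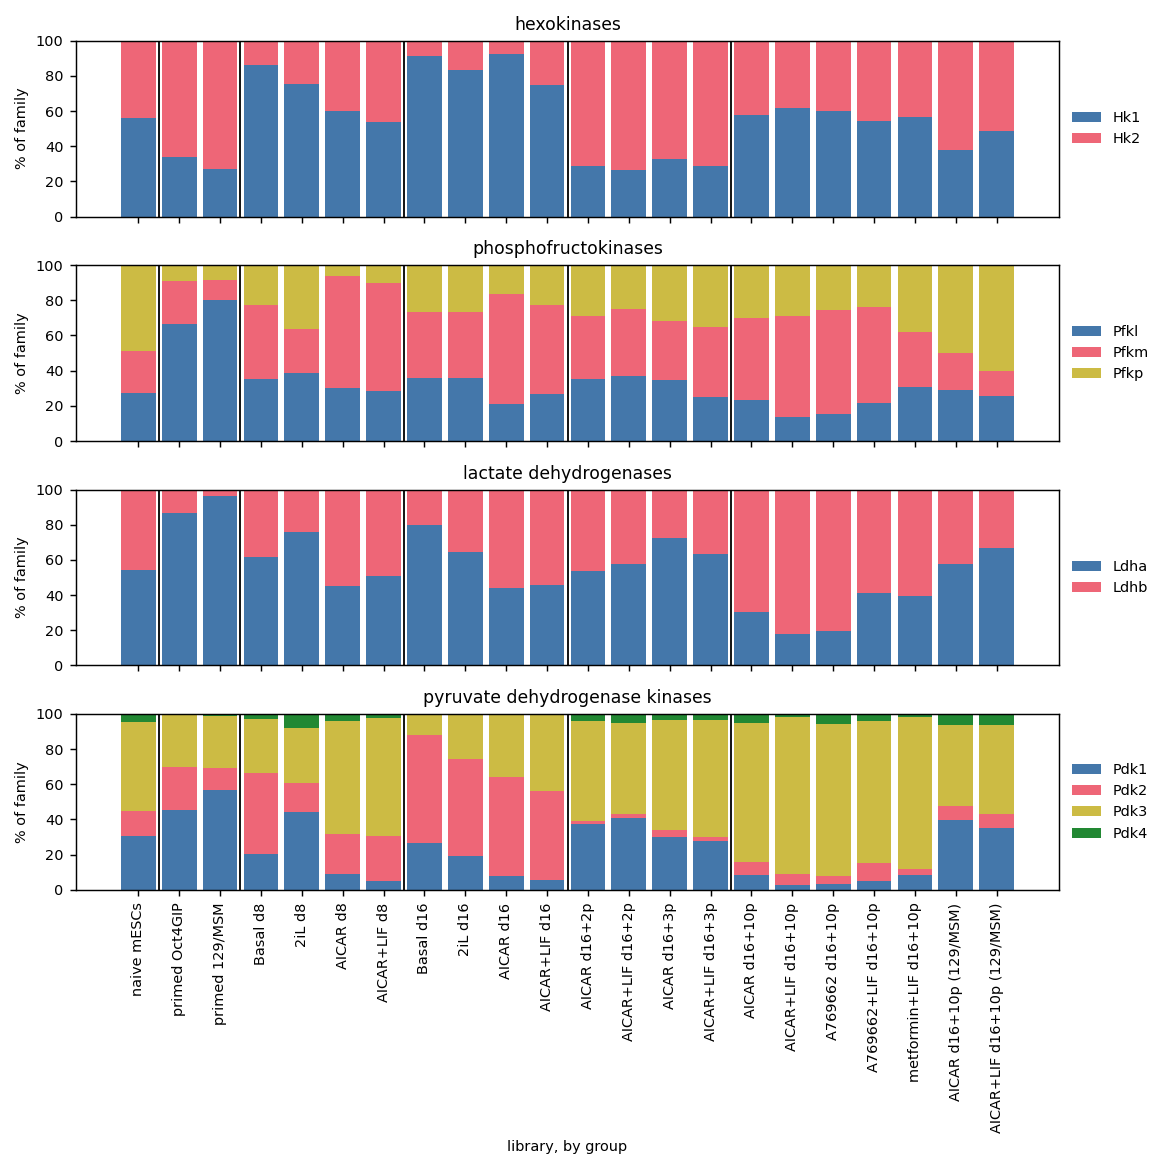
Stacked bars give the share (%) of each isozyme in the length-scaled counts of its family (vertical, 4 families) in each of the 22 libraries (horizontal, grouped by state). Ldhb takes 33.1% to 82.2% at d16+10p against 3.40% and 13.6% in the primed pair, and Pfkl takes 66.4% and 79.9% in the primed pair and less in every other library.

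Per kilobase of transcript, Pkm (median 1357 CPM per kb), Aldoa (1319) and Ldha (1191) led the 36 genes in primed cells, and the ranges of the 3 genes overlapped. Gapdh (999), Aldoa (830), Pkm (752), Eno1 (434) and Ldhb (316) led at d16+10p, and Gapdh (958), Aldoa (683) and Pkm (591) did in naive mESCs. In the 129/MSM libraries at d16+10p Ldhb was at 198 and 173 CPM per kb, below Ldha (270 and 349) and Pgam1 (362 and 360), so its place holds for the median over the 7 libraries. Counts on near-identical copies were not added to these levels. They equalled 66.8% to 84.4% of Eno1 (Eno1b) and 22.3% to 47.8% of Pgk1 (Pgk1-rs7), so the order of genes with such copies is uncertain.

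In the whole cultures, AICAR went with lower levels of glycolysis genes. In a fit with day and AICAR as terms, 18 of 34 genes (52.9%) had lower values in the 4 libraries with AICAR or AICAR+LIF than in the 4 with Basal medium or 2iL, against 6.06% of all 14026 genes tested, and 0 were higher, against 3.54%. Pfkfb1 and Pdk4 had too few counts for this fit. At an unadjusted p under 0.05, 0 were higher in edgeR. DESeq2 called 18 of the 34 lower and 0 higher, against 1255 and 885 of all genes, and limma voom 17 and 0, against 828 and 608. The median log2 fold change was -0.84, against -0.02 over all genes. Slc16a3 (log2 fold change -4.01 ± 0.6 SE, adjusted p = 0.0107), Pfkp (log2 change -2.74, adjusted p = 0.00571), Pdk1 (log2 change -2.71, adjusted p = 0.00767), Aldoc (log2 change -2.49, adjusted p = 0.022) and Pfkl (log2 change -2.1, adjusted p = 0.00552) changed most. Slc16a3 had 1.13 to 3.95 CPM with AICAR, from 2 to 4 counts per library, against 13.8 to 50.1 CPM without it, and Pfkl 43.5 to 60.6 CPM against 144 to 351 CPM. Pfkl, Pfkp, Pfkfb4, Tpi1, Pgk1, Pgam1, Eno2, Pkm, Ldha, Slc16a3 and Pdk1 did not overlap between the libraries with and without AICAR. No share of all 14026 genes is given for this separation, so it is not read as particular to these genes.

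Ldha was lower with AICAR (log2 fold change -1.72 ± 0.16 SE, adjusted p = 0.00552), Tpi1 (log2 change -1.31, adjusted p = 0.00552) and Pgk1 (log2 change -1.75, adjusted p = 0.00552) likewise. Ldhb (log2 change -0.27, adjusted p = 0.498), Slc16a1 (log2 change -0.01, adjusted p = 0.995), Slc2a1 (log2 change -0.4, adjusted p = 0.596), Slc2a3 (log2 change 0.6, adjusted p = 0.401), Pdha1 (log2 change 0.1, adjusted p = 0.642), Pdhb (log2 change 0.13, adjusted p = 0.569) and Dlat (log2 change 0.29, adjusted p = 0.25) were not called. All 18 genes had a negative change on each day, in the same libraries that gave the calls, for example -1.55 at d8 and -1.87 at d16 for Ldha and -2.27 at d8 and -2.93 at d16 for Pdk1. A test of the difference between the days called 0 of the 34 genes in edgeR (0.200% of all genes), among them Slc2a1 with 0.72 at d8 and -1.42 at d16 and Slc16a1 with 1.1 at d8 and -0.95 at d16. In the same test 8 of the 34 had an unadjusted p under 0.05, Slc2a1 and Slc16a1 among them, and the share of all genes at that threshold is not given. The calls rest on few and partly shallow libraries: without the 3 libraries of lowest total, which removes both AICAR libraries at d8, 0 of the 18 were called and 0 of all genes (lowest adjusted p among them 0.0527), although each kept its direction. Without the day as a covariate 2 were called (Pfkl and Pgk1). Marker levels of other cells moved as well. Feeder markers summed to 7270 and 7390 CPM with and 5670 and 6010 CPM without AICAR at d8. They summed to 22300 and 26100 CPM with and 8230 (Basal) and 55100 CPM (2iL) without it at d16, and 3 of 11 tested were higher (0 lower). Neural markers summed to 978 and 1260 CPM with and 3580 and 6170 CPM without AICAR at d8, and 678 and 661 CPM with and 1130 (Basal) and 536 CPM (2iL) without it at d16, and 1 of 8 was lower. Muscle markers summed to 89 and 275 CPM with and 18.5 and 24.9 CPM without AICAR at d8, and to 187 and 70.4 CPM against 10.6 and 58.6 CPM at d16, with 1 of 5 tested higher. Of the markers of pluripotent cells 2 of 3 were higher with AICAR, and of the primed markers 3 of 4 tested. The sums of the 3 pluripotency markers did not rise in the same way. They were 224 and 215 CPM with and 176 (Basal) and 227 CPM (2iL) without AICAR at d8. At d16 they were 133 and 149 CPM with and 316 (Basal) and 170 CPM (2iL) without it. The part of these cells in the result was not tested.

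**Figure D4:**
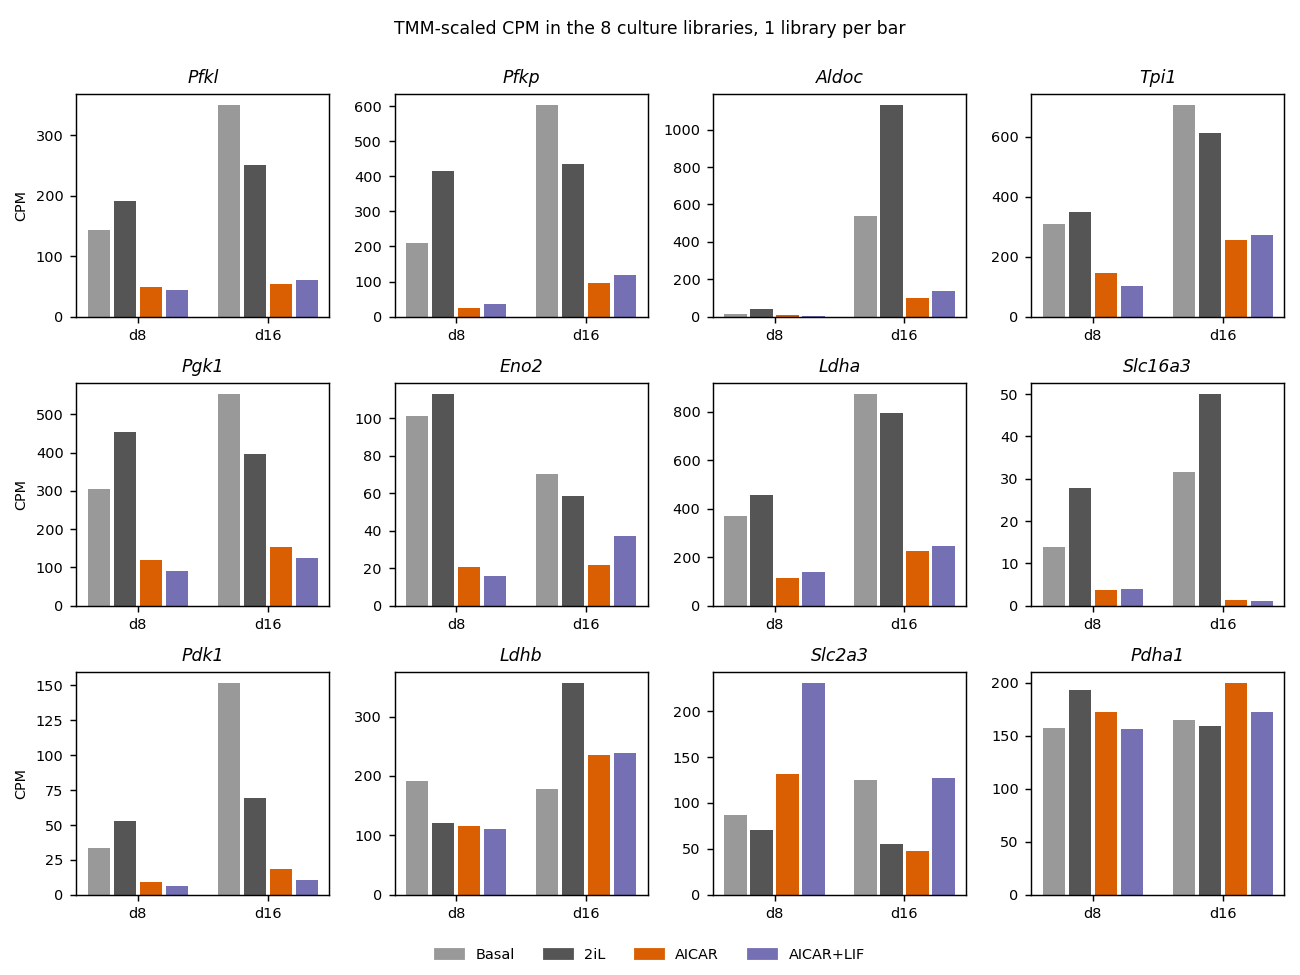
Levels in CPM (vertical, from 0) of 12 genes in the 8 cultures before expansion, by day (horizontal) and treatment (colour), with 1 library per bar and no error bar because each condition has 1 library. Pfkl, Pfkp, Aldoc, Tpi1, Pgk1, Eno2, Ldha, Slc16a3 and Pdk1 are lower in both AICAR bars than in the Basal and 2iL bars on each day, which Ldhb, Slc2a3 and Pdha1 are not on both days.

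From d8 to d16, 13 of 34 genes (38.2%) rose, against 14.7% of all genes, and 0 fell, against 9.50%. At an unadjusted p under 0.05, 0 of the 34 fell in edgeR. DESeq2 called 15 higher and 0 lower, against 2154 and 1409 of all genes, and limma voom 16 and 0, against 2419 and 1865. Aldoc rose most (log2 fold change 4.72 ± 0.37 SE, adjusted p = 0.00166), followed by Mpc1 (log2 change 2.48, adjusted p = 0.0129), Pdk2 (log2 change 2.48, adjusted p = 0.00464), Slc16a1 (log2 change 2.44, adjusted p = 0.0155) and Mpc2 (log2 change 1.49, adjusted p = 0.00951), each without overlap between the days. Hk1 (log2 change 1.33, adjusted p = 0.00802), Pfkp, Pdk1, Aldoa, Tpi1, Pfkfb2, Ldha and Pfkm also rose, the last with log2 change 0.81, adjusted p = 0.0388. Leaving out Basal d8 left 8 higher genes of the list and 976 of all 14427, and leaving out Basal d16 left 8 and 847 of 14302. Hk1, Aldoa, Tpi1 and Ldha passed in all 16 alternatives, and Aldoc, Mpc2 and Pdk2 in the 15 in which they had enough counts to be tested. Feeder markers rose over the same days (6 of 11 higher, 5670 to 7390 CPM at d8 and 8230 to 55100 CPM at d16) and neural markers fell (6 of 8 lower, 978 to 6170 CPM at d8 and 536 to 1130 CPM at d16). Their part in the rise of these genes was not tested.

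**Figure D5:**
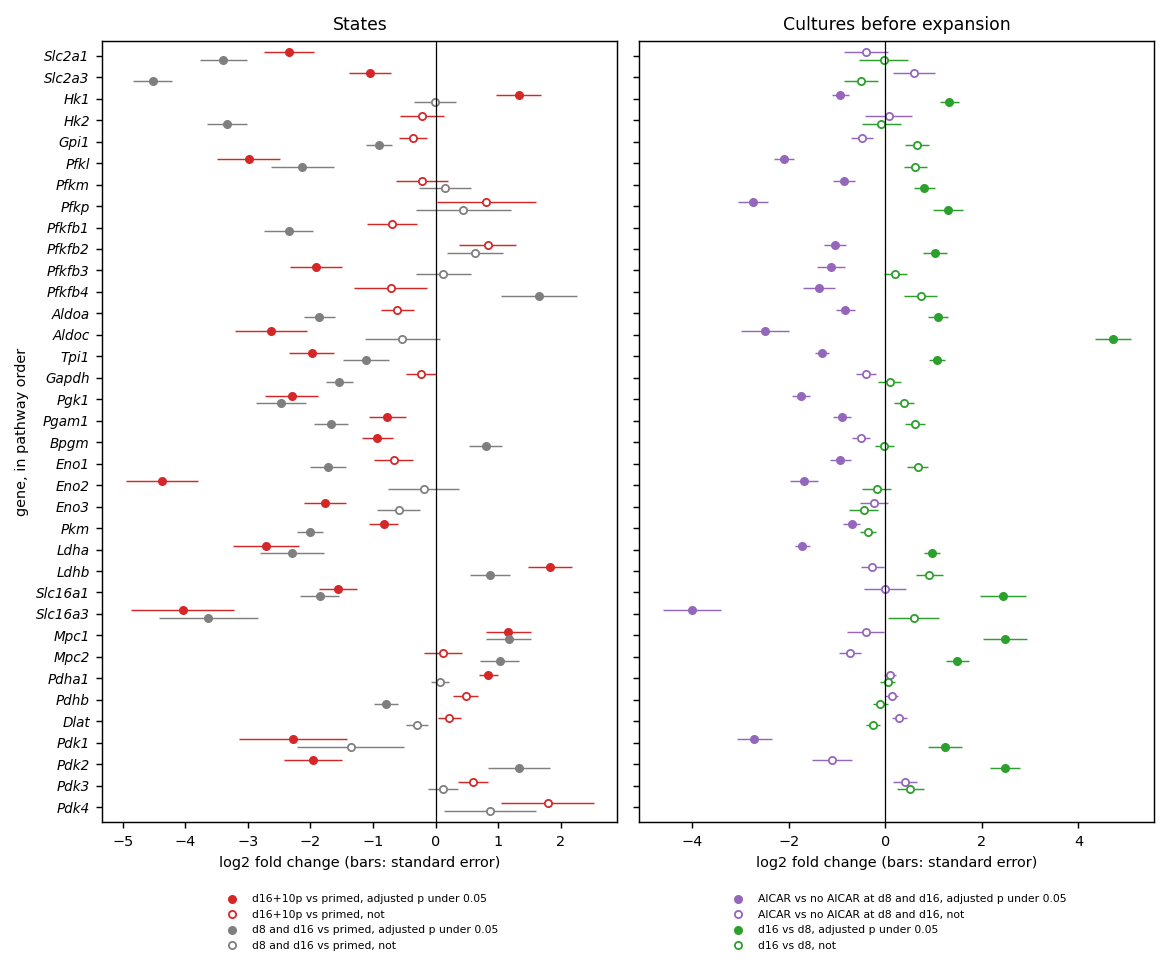
Log2 fold change (horizontal) with its standard error of the 36 genes (vertical, in pathway order), for d16+10p and the cultures against primed cells (left) and for AICAR and for d16 against d8 in the cultures (right); filled points have an adjusted p under 0.05. Hk1, Ldhb, Mpc1 and Pdha1 are the 4 filled points right of 0 for d16+10p against primed cells, and every filled AICAR point lies left of 0.

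Other gene groups around the pathway were read in the same fits. Of all genes, 16.7% were higher and 19.9% lower at d16+10p than in primed cells. With AICAR, 3.54% of all genes were higher and 6.06% lower, and 14.7% were higher and 9.50% lower at d16 than at d8. Of 18 hypoxia response genes, 10 were lower and 1 (Kdm3a, named after its value was seen) higher at d16+10p than in primed cells, led by Adm (log2 change -3.72, adjusted p = 0.00212), P4ha2 (log2 change -3.46, adjusted p = 1.74e-10), Bnip3 (log2 change -3.08, adjusted p = 0.00603) and Vegfa (log2 change -2.79, adjusted p = 0.000779). In the cultures, 6 of 16 hypoxia response genes tested were lower with AICAR and 0 higher, led by Bnip3 (log2 change -3.17, adjusted p = 0.00552), Vegfa (log2 change -2.42, adjusted p = 0.00571), Egln3 (log2 change -1.82, adjusted p = 0.00879) and P4ha1 (log2 change -1.12, adjusted p = 0.0117), and 7 of 16 were higher at d16 than at d8. The median log2 fold change of the hypoxia list was -1.52 for d16+10p against primed cells, and -0.56 for AICAR. Of 20 genes of the citric acid cycle, which burns the acetyl-CoA made from pyruvate, 7 were higher and 0 lower at d16+10p than in primed cells, led by Idh2 (log2 change 1.47, adjusted p = 0.00144), Ogdh (log2 change 0.95, adjusted p = 6.56e-05), Mdh2 (log2 change 0.84, adjusted p = 0.00172) and Cs (log2 change 0.69, adjusted p = 0.00346), and none of the 20 was called for AICAR by edgeR.

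Among 12 regulators of the Myc and Lin28 list, 5 were lower and 2 higher at d16+10p than in primed cells, led by Esrrb, a factor of naive pluripotency (log2 change 9.12, adjusted p = 1.6e-10), Lin28b (log2 change -2.46, adjusted p = 1e-04), Myc (log2 change -2.39, adjusted p = 0.000477) and Lin28a (log2 change -2.14, adjusted p = 0.000999). In the cultures AICAR went with higher Lin28a (log2 change 2.76, adjusted p = 0.0155) and Lin28b (log2 change 1.36, adjusted p = 0.0405). Of 29 tested isozymes and regulators of glycolysis outside the 36 genes, 6 were higher and 10 lower at d16+10p than in primed cells, beside 16.7% and 19.9% of all genes. The largest changes were those of Gckr, an inhibitor of glucokinase (log2 change -6.73, adjusted p = 2.65e-06), Ldhc, the lactate dehydrogenase of testis (log2 change 5.6, adjusted p = 0.00237), Pdha2, the testis form of Pdha1 (log2 change 5.37, adjusted p = 0.0175), and Slc2a12, a further glucose transporter (log2 change -4.74, adjusted p = 0.00115). Of 10 tested genes of the pentose phosphate pathway, which branches from glucose 6-phosphate, Pgd (log2 change 1.39, adjusted p = 0.00232) and Taldo1 (log2 change 0.43, adjusted p = 0.014) were higher in the same comparison and Pgls (log2 change -1.52, adjusted p = 0.00021) lower. These 2 higher and 1 lower of 10 stand near or below the shares of all genes and are not read as a change of the pathway.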

How the data were processed

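RNA was sequenced as single reads from stranded poly(A) libraries. Per the submitters' processing notes and the study's methods, the authors used bcl2fastq, Bowtie2 2.2.5 on the mouse GRCm38 transcripts of Ensembl, kept reads with a mapping quality of at least 1, and deposited read counts per gene and per transcript, with no normalization. The transcript counts were used for Pkm and for lengths, and the deposited summary of detected genes was not used.

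Counts were scaled with TMM and tested with edgeR 4.0.16 (glmQLFit, glmQLFTest) in R 4.3.3, after filterByExpr, in 1 fit over all 22 libraries by group. AICAR was tested in a fit over the 8 cultures with day and AICAR as terms. The day was tested over the same 8 cultures with day and treatment (4 levels) as terms. P-values were adjusted over all genes tested. Alternatives were DESeq2 1.42.0, limma 3.58.1 voom, no normalization factors, other filters, other sets of libraries, copies summed, and each library left out. The fits were also run on simulated counts. Those counts held no differences of activator, passage or line within a group, so they do not show how far calls hold in these libraries. Tests of the lines, of the days, and of the 129/MSM libraries alone were added after seeing the data. The 36 genes and all lists were chosen with earlier results of these data known. Values are given library by library for 32 genes, except at d16+10p, where the range and median are given. These are the genes called between d16+10p and primed cells, d16+10p and d16+2-3p, or d16+2-3p and the cultures with an absolute log2 fold change of at least 1, and their isozymes. For the other 4 genes ranges are given. Genes outside the 36 are named from the lists, at most 4 of a list, by the largest change among those called. Nothing says that libraries of a group are repeated cultures, so p-values measure the spread between libraries that also differ in activator, passage and line. Promoter windows came from RefSeq, positions and lengths from GENCODE M21, a release other than the authors'. Python 3.11.15, numpy 2.4.6, pandas 2.3.3 and matplotlib 3.10.9 were used.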

Additional observations from a re-analysis of the deposited data

Results flagged for a closer look

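Of 144 tests for a single library far from its group, 1 for each of the 36 genes in each of 4 groups, 4 were past the limit, where chance alone flags about 1 in 20 groups (7.2 here). Pfkfb1 was at 4.36 CPM in AICAR d16+3p and at 7.03 to 7.61 CPM in the other d16+2-3p libraries. Bpgm was at 17.2 CPM in AICAR+LIF d16+3p and at 13.3 to 13.6 CPM in the others, and Pdk3 at 38.3 CPM in the same library and at 29.8 to 30.8 CPM in the others. Ldhb was at 191 CPM in Basal d8 and at 111 to 120 CPM in the other d8 cultures.

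The change of Slc2a1 from primed cells to d16+10p differed between the cell lines, by -3.08 on the log2 scale for 129/MSM against Oct4GIP (standard error 0.7, adjusted p = 0.0309 by edgeR). It was -0.65 in Oct4GIP and -3.72 in 129/MSM, and each line had 1 primed library, so the spread behind the test came from the other groups. Line, sex, feeders and medium differed together between the primed libraries and cannot be told apart.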

How the results depend on the processing

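Of the alternatives for the genes called, 1613 kept the direction and the side of the threshold, 232 kept the direction and lost the call, and 0 reversed. For d16+10p against primed cells, 9 lower genes were called in Oct4GIP libraries only (2709 of all 18416 genes), 8 in 129/MSM libraries only (1895 of 18739), and 7 to 17 with single libraries left out, with 7 without primed 129/MSM (2712 of 18581). The values for 129/MSM libraries only came from the fit of all 22 libraries with the lines as separate groups, so their spread came from all libraries. For d16+10p against d16+2-3p, 12 genes were higher when only the groups compared were fitted (1608 of 13462) and 1 (Pdk1) was lower in Oct4GIP libraries only. For the cultures against primed cells, 2 genes were higher with no filter and 2 with at least 10 counts in every library, 0 with only the groups compared and 0 in Oct4GIP libraries only, and 0 to 6 with single libraries left out (0 without primed 129/MSM, 1 without primed Oct4GIP, 3 without Basal d8). For d16+2-3p against the cultures, 6 of 25 genes tested were lower with at least 10 counts in every library. For AICAR, 0 genes were lower without the 3 libraries of lowest total (0 of all genes), 2 without a term for the day (27 of 14026), and 7 to 19 with single libraries left out (7 without AICAR d8, with 177 of 14473, 8 without AICAR+LIF d16, 9 without AICAR+LIF d8, 10 without AICAR d16, 11 without 2iL d8). For d16 against d8, 8 to 11 were higher with single libraries left out, 8 without Basal d8 (976 of 14427) or Basal d16 (847 of 14302). The first of these had fewer libraries; the cause of the other shifts was not tested. Without length scaling the mean shares at d16+10p were 11.1% for Slc2a1 among glucose transporters, 16.3% for Pfkl and 98.2% for Aldoa, against 19.3%, 22.8% and 99.0%.

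Without normalization factors the median of all genes moved from -0.01 to -0.11 for d16+10p against primed cells, from -0.1 to -0.15 for d16+2-3p against the cultures (-0.18 with DESeq2) and from 0.01 to -0.14 for d16 against d8, and DESeq2 moved it from 0.04 to 0.12 for the cultures against primed cells. The split of all genes went from 497 higher and 850 lower to 776 and 650 for AICAR, where 14 of the 34 genes tested were then lower and 0 higher, and from 2066 and 1332 to 1727 and 1807 for d16 against d8, where 11 were then higher and 0 lower. Depth limits the genes near the floor, Pfkfb1, Pfkfb4, Eno2, Slc16a3, Pdk2 and Pdk4, and most of all the AICAR libraries at d8.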

Other observations

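The naive library, a line of its own, had 27 of the 36 genes within the range of the 7 libraries at d16+10p (75.0%), as had 74.0% of all 18739 genes tested, so this share is near the background. Slc2a3, Pfkfb1, Tpi1 and Pdk2 were above that range (1944, 15.2, 285 and 8.38 CPM in naive mESCs), and Pfkfb3, Aldoa, Pkm, Slc16a1 and Pdk3 were below it (8.07, 1032, 1438, 136 and 29.2 CPM). With 1 naive library, these differences were not tested.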
